A study of Caenorhabditis elegans with 10 samples.

Results

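The genes described here encode the proteins of the cytosolic ribosome of *C. elegans*. They were chosen by name: every gene of the expression table whose WormBase name starts with *rpl-* (large subunit) or *rps-* (small subunit). That gave 76 genes of the 15106 in the table, 45 *rpl-* and 31 *rps-*. All 76 were abundant enough to be tested, among 13869 genes tested in all. *rpl-41.1* and *rpl-41.2* were not analysed here.

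RNA was sequenced from whole young adult worms of 4 strains. N2 is the wild type. The alleles *smg-1(rrr59)* and *smg-2(rrr60)* affect core factors of nonsense-mediated mRNA decay (NMD), and by the strain list both also carry the transgene *rrrSi482*, an NMD reporter called R-1 that N2 lacks. *clk-2(qm37)* is a temperature-sensitive mutant of the worm TEL2 gene, listed in a strain with a second reporter, R-2. No label spells out the name that the table gives to the columns taken here as *clk-2*: it blends the names of the temperature-sensitive alleles, and no other strain has a name like it. The allele is the one the study names for this experiment. Each strain gave 2 libraries from animals at 20 °C, and N2 and *clk-2* each gave 1 more from animals kept for 3 hours at 25 °C, which the labels call heat shock. A figure legend of the study calls 20 °C permissive for *clk-2(qm37)*, while its methods name a lower permissive temperature for such mutants. The study treats 25 °C as restrictive, and the 3-hour shift was meant to inactivate CLK-2. How much CLK-2 function remained at either temperature was not measured here, so *clk-2* at 20 °C cannot be read as full loss of CLK-2. Each allele stands for 1 strain, so an effect of the allele and an effect of the strain or of its transgene cannot be told apart.

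A ribosome holds 1 copy of nearly every ribosomal protein, and the genes for these proteins are among the most strongly transcribed of any growing cell. Their output is held in balance in part after transcription. In *C. elegans*, some ribosomal protein pre-mRNAs are known to be spliced partly into unproductive forms with a premature stop codon. Among them are those of *rpl-3*, *rpl-12*, *rpl-7A*, *rpl-1* (*rpl-10a* in RefSeq) and *rpl-8*, taken here as *rpl-2* by its RefSeq name. NMD is the pathway that degrades such forms, SMG-1 is its kinase and SMG-2 the helicase that SMG-1 phosphorylates. CLK-2/TEL2 is a factor that helps mature large kinases of the SMG-1, TOR and ATM class.

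The values are read counts per gene that the authors divided by 1 size factor per library, called normalized counts below. They add up all splice forms of a gene, so a change cannot be assigned to a productive or an unproductive form. Libraries held 3051836 to 14209955 counted reads, with *clk-2* replicate 1 (3523986) and *clk-2* at 25 °C (3051836) the shallowest. Markers of other tissues also moved between strains: in *clk-2*, 28 of 30 *msp* (major sperm protein) genes were lower, and their summed level was 6663 to 6837 normalized counts against 23258 to 29917 in N2. In *smg-1*, 19 of them were lower and 1 higher (sums of 15528 to 15799), and in *smg-2* 7 were lower and 1 higher (16420.1 to 19013). Among 13 germline and oocyte genes, 8 were lower in *smg-1*, with sums of 26938 to 28081 against 38330 to 46414 in N2, and 2 were higher and 1 lower in *clk-2*, with sums of 36713 to 47816. Of the 8 intestinal genes, the sum was 139264 to 156302 in N2, 82958 to 95754 in *smg-1*, 101275 to 130943 in *smg-2* and 109742 to 125758 in *clk-2*. That sum is weighted to the *vit* (yolk protein) genes: *vit-6* alone had a mean of 78825 in N2, and *ges-1* 382. In *smg-1* 6 *vit* genes were lower and *ges-1* was higher (0.59 on the log2 scale). In *smg-2* only *vit-3* was called, as lower. In *clk-2* *vit-3* was lower and *ges-1* higher (0.65). Of 5 muscle genes, 3 were lower in *smg-1* and 2 in *clk-2*, and 0 were called in *smg-2*. Of 4 hypodermal genes, *dpy-7* (3.02) and *rol-6* (2.68) were higher in *clk-2* and 2 were not called. In the *smg* mutants 0 hypodermal genes were called. Of 5 neuronal genes, *unc-119* alone was called, as higher in each mutant, and by the strain list the reporters carry an *unc-119* copy. Of all genes tested, 15.8% were lower in *clk-2*, 9.25% in *smg-1* and 0.981% in *smg-2* (adjusted p under 0.05, limma). The shares that were higher were 12.2%, 12.3% and 8.12%. Of these lists, 1 *msp* gene was at 0 in at least 1 library. The part of tissue makeup in the results below was not tested, and in whole animals fewer cells of a type and less RNA per cell cannot be told apart.

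The family took a large part of all RNA counted. In N2 at 20 °C the 76 genes received 9.23% and 9.94% of the counted reads. They lie on all 6 chromosomes (21 on I, 10 on II, 18 on III, 17 on IV, 8 on V and 2 on X) and are short, with a median exon length of 538 nucleotides against 1404 for all genes tested. Per kilobase of exon, the level in N2 had a median of 17081 normalized counts over the members. The highest were *rps-23* (97727), whose protein takes part in the accuracy of decoding, *rps-0* (53874), the worm laminin-receptor-like protein RPSA, and *rpl-6* (49067). The lowest were *rpl-42* (82.2), *rpl-37* (355) and *rps-22* (3139).

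Both genes at the bottom of that order sit far below the rest of the family. *rpl-42* had normalized counts of 46.3 and 72.6 in N2, and *rpl-37* 89.1 and 107. *rpl-37* (*rpl-37.2* in RefSeq) is paired in RefSeq with a gene that has no *rpl-* name in the table, W01D2.1 (*rpl-37.1*), which had normalized counts of 3183 and 3033 in N2. The levels of *rpl-42* and *rpl-37* thus go against the label of an abundant ribosomal protein gene.

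In *smg-1* and *smg-2* a small group of ribosomal protein genes rose while most of the family did not. In *smg-1*, 7 of the 76 rose and 9 fell at an adjusted p under 0.05 (limma, adjusted over all 13869 genes), where 12.3% of all genes tested rose and 9.25% fell. In *smg-2*, 7 rose and 0 fell, where 8.12% of all genes rose and 0.981% fell. The share of members that rose, 9.21% in each mutant, was thus close to the background. The same genes were called in part: 6 rose in both mutants, *rpl-3*, *rpl-7A*, *rpl-12*, *rpl-26* and *rpl-30* of the large subunit and *rps-22* of the small, where 7.26% of all genes tested rose in both. *rps-17* was called in *smg-1* alone and *rpl-1* in *smg-2* alone. By the rule of an at least 2-fold change with an unadjusted p under 0.05, 1 member rose in *smg-1* (*rpl-30*) and 3 in *smg-2* (*rpl-30*, *rpl-7A* and *rps-22*), where 8.98% and 6.86% of all genes did. Both mutants were set against the same N2 libraries, so their values are given side by side and not as independent evidence.

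**Figure D1:**
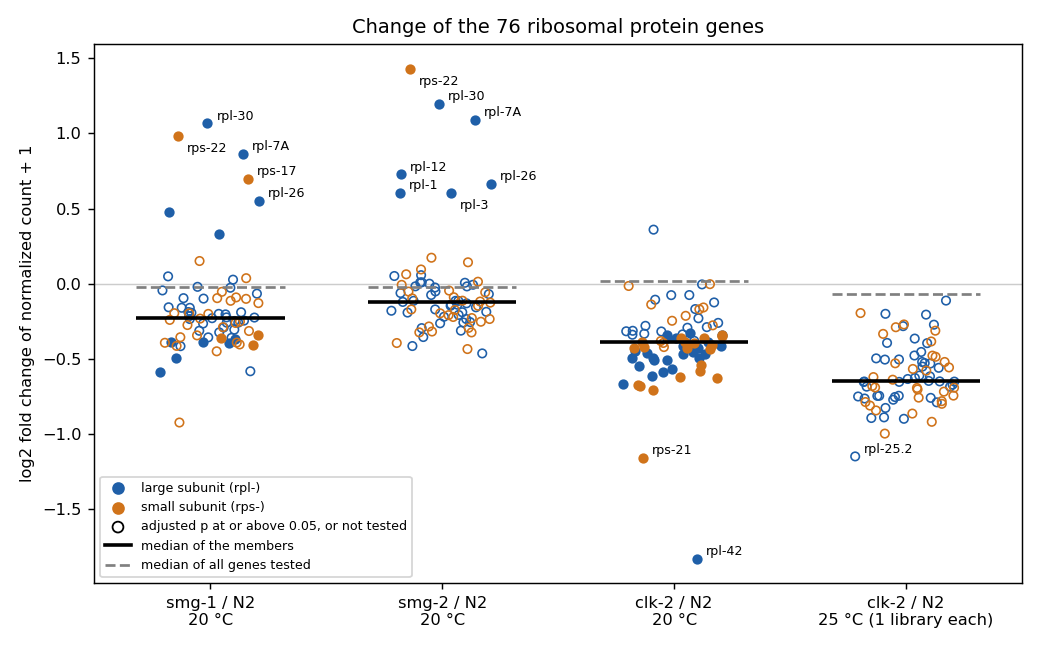
Log2 fold change of each of the 76 ribosomal protein genes (points) in *smg-1*, *smg-2* and *clk-2* against N2 at 20 °C, with 2 libraries a group, and in *clk-2* against N2 at 25 °C, with 1 library each. Filled points passed an adjusted p under 0.05, black lines are medians of the members and dashed lines medians of all genes tested. A few genes stand above the family in *smg-1* and *smg-2*, and the member median is -0.23, -0.12, -0.39 and -0.65 from left to right (relative to all genes, both *smg* medians turn positive under quantile normalization).

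*rps-22* rose most in *smg-2*. It encodes a protein of the small subunit and lies on chromosome III from 1950535 to 1951425 (WBcel235). Its normalized counts were 2230.0 and 2203 in N2, 4675 and 4117 in *smg-1*, 6120 and 5852 in *smg-2*, and 1659 and 1725 in *clk-2*. The 4 *smg* libraries lay above both N2 libraries and *smg-2* above *smg-1*, while both *clk-2* libraries lay below N2. The log2 fold change was 0.98 in *smg-1* (SE 0.10, adjusted p = 0.000125, limma) and 1.43 in *smg-2* (SE 0.10, adjusted p = 1.15e-05). Its 5 annotated transcripts are all coding, with coding lengths of 390 or 303 nucleotides.

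*rpl-30* encodes a large subunit protein whose yeast counterpart binds its own pre-mRNA and holds back its splicing. It lies on chromosome I from 10436254 to 10436888. Its normalized counts were 5532 and 5064 in N2, 11708 and 10497 in *smg-1*, and 12556 and 11772 in *smg-2*. All 4 *smg* libraries were above both N2 libraries, by a log2 fold change of 1.07 in *smg-1* (SE 0.12, adjusted p = 0.000308, limma) and 1.20 in *smg-2* (SE 0.12, adjusted p = 0.00015). In *clk-2* the counts were 5568 and 4522, which overlap N2 (log2 fold change -0.08, SE 0.12, limma's adjusted p = 0.691). One of its 4 annotated transcripts is noncoding.

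*rpl-7A*, also of the large subunit, lies on chromosome IV from 4389143 to 4390590. It had normalized counts of 9291 and 9930.2 in N2, 17208 and 17814 in *smg-1*, and 20131 and 20834 in *smg-2*. The groups did not overlap, and the log2 fold changes were 0.87 (SE 0.11, adjusted p = 0.000528, limma) and 1.09 (SE 0.11, adjusted p = 0.000118). The annotation gives it 1 transcript, of 5 exons and a coding length of 795 nucleotides, so no second form is annotated for the gene with the third highest rise in *smg-2*.

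*rpl-26*, *rpl-12* and *rpl-3* rose by less, from high levels in N2. *rpl-26*, a protein near the exit of the nascent chain, lies on chromosome II from 8602785 to 8603581 and went from normalized counts of 14879 and 14927 in N2 to 20902 and 22760 in *smg-1* and 23630 and 23587 in *smg-2* (log2 fold changes 0.55 and 0.66). *rpl-12*, a protein at the base of the ribosomal stalk, lies on chromosome IV from 13239587 to 13240651 and had 12677 and 16031 in N2, 19946 and 19707 in *smg-1*, and 23259 and 23979 in *smg-2*. Its log2 fold changes were 0.48 (SE 0.13, adjusted p = 0.0304, limma) and 0.73 (SE 0.13, adjusted p = 0.00576). The N2 libraries were further apart for *rpl-12* than for the other risers, but no *smg* library overlapped them.

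*rpl-3*, whose protein reaches towards the peptidyl transferase centre, lies on chromosome III from 3867854 to 3869587. It had normalized counts of 20213 and 20914 in N2, 24853 and 26941 in *smg-1*, 30900 and 31658 in *smg-2*, and 15003 and 15881 in *clk-2*. N2, both *smg* mutants and *clk-2* did not overlap: *smg-2* was highest, *smg-1* next, and *clk-2* lowest. The log2 fold change was 0.33 in *smg-1* (SE 0.10, adjusted p = 0.048, limma) and 0.61 in *smg-2* (SE 0.10, adjusted p = 0.00417). The *smg-1* calls of *rpl-3* and *rpl-12* were near the threshold. That of *rpl-3* was lost when any 1 of the N2, *smg-1* or *smg-2* libraries was left out (log2 fold change 0.27 to 0.39). That of *rpl-12* was lost without N2 replicate 1 (0.31, limma's adjusted p = 0.144), either *smg-1* library or either *smg-2* library.

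**Figure D2:**
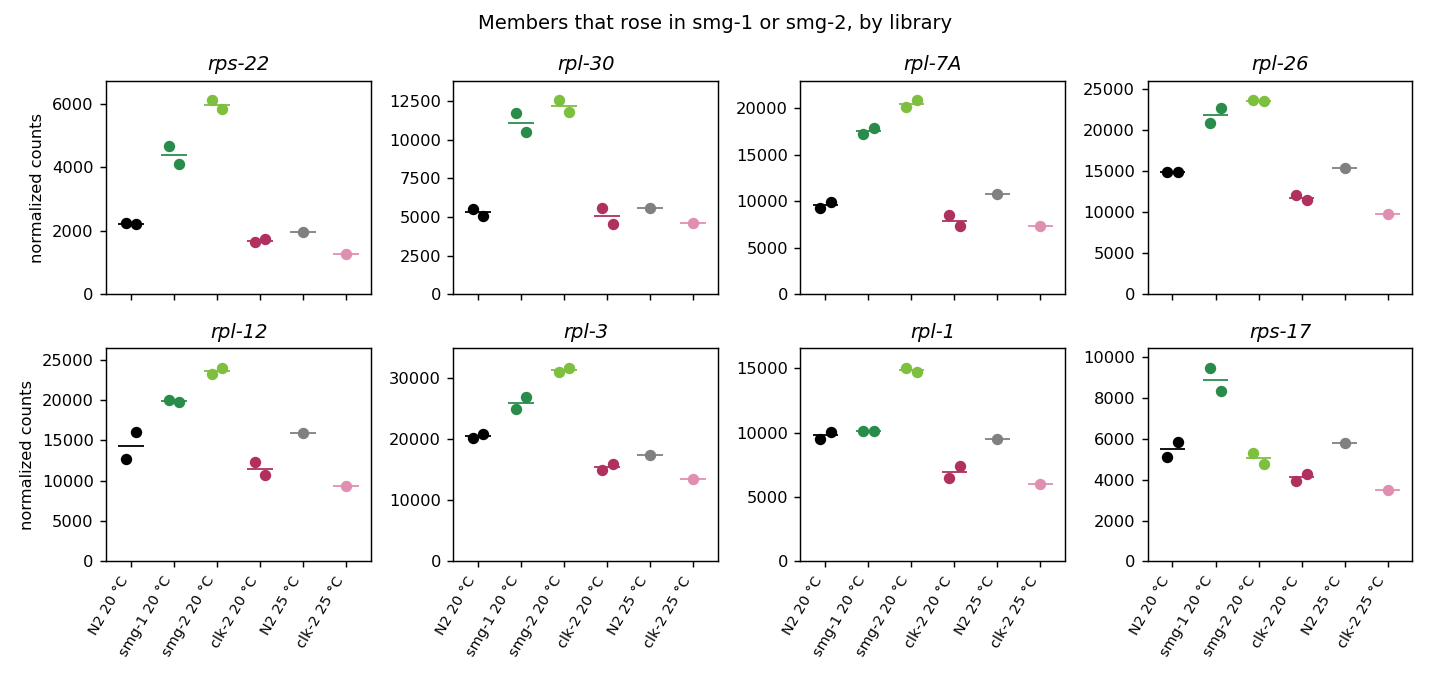
Normalized counts (vertical axes, from 0) of the 8 ribosomal protein genes that rose in *smg-1* or *smg-2*, 1 panel a gene. Each point is 1 library and each line the mean of its group. In the panels of *rps-22*, *rpl-30*, *rpl-7A*, *rpl-26*, *rpl-12* and *rpl-3* all 4 *smg* libraries lie above both N2 libraries at 20 °C, *rpl-1* is raised in *smg-2* and *rps-17* in *smg-1*.

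The mutants differed from each other in *rpl-1* and *rps-17*. *rpl-1*, the protein of the mobile stalk at the side where tRNA leaves, lies on chromosome I from 2875398 to 2876308. It had normalized counts of 9548 and 10028 in N2, 10118 and 10115 in *smg-1*, and 15036 and 14689 in *smg-2*. *smg-1* was close to N2 (log2 fold change 0.05, adjusted p = 0.78, limma), and *smg-2* was higher by 0.60 (SE 0.10, adjusted p = 0.00383). *rps-17*, of the small subunit, on chromosome I from 6220093 to 6220764, showed the opposite order. It had 5136 and 5844 in N2, 9486 and 8332 in *smg-1*, and 5311 and 4788 in *smg-2*, with a log2 fold change of 0.70 in *smg-1* (SE 0.12, limma's adjusted p = 0.00261) and -0.12 in *smg-2* (adjusted p = 0.624).

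Tested directly, *smg-1* minus *smg-2* was -0.55 for *rpl-1* (SE 0.10, adjusted p = 0.04, limma) and 0.82 for *rps-17* (SE 0.12, adjusted p = 0.0157). These were the 2 members of 76 called in that comparison, 1 in each direction, where 0.447% of all genes tested were higher and 0.498% lower in *smg-1*. The number of members called ranged from 0 to 4 when 1 library was left out.

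Not every gene taken here as having a described unproductive form rose. *rpl-2* was matched to the described *rpl-8* by its RefSeq name alone. It lies on chromosome V from 20479689 to 20480834 and had normalized counts of 22182 and 23706 in N2, 16513 and 18537 in *smg-1*, and 19409 and 21339 in *smg-2*. It fell in *smg-1*, by 0.39 on the log2 scale (SE 0.11, adjusted p = 0.0361, limma), a call lost without any 1 of the N2, *smg-1* or *smg-2* libraries, and its log2 fold change in *smg-2* was -0.17 (adjusted p = 0.439). Only its gene total was measured, so a rise of a minor form within that total could not be seen.

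The annotation separates the risers in part. In the Ensembl annotation of WBcel235, 7 members have at least 1 transcript annotated as noncoding: *rpl-1*, *rpl-3*, *rpl-12*, *rpl-13*, *rpl-22*, *rpl-30* and *rps-23*. Of these, 3 rose in *smg-1* and 4 in *smg-2*, with a median log2 fold change of 0.05 and 0.60. Of the other 69 members, 4 rose in *smg-1* and 3 in *smg-2*, with medians of -0.24 and -0.14. *rpl-13* had log2 fold changes of -0.10 in *smg-1* and -0.05 in *smg-2*, *rpl-22* -0.07 and -0.07, and *rps-23* -0.26 and -0.44, none of them called. Among the 414 other protein-coding genes with such a transcript, 27.5% rose in *smg-1* and 23.7% in *smg-2*, against 10.8% and 6.64% of the 13064 without one. 49 members have a single annotated transcript, and 2 of them rose in either mutant, *rpl-7A* and *rps-17*. The remaining 27 members hold the other 6 risers. The matching shares over all genes tested, by number of transcripts, were not computed. This split therefore cannot be read as a trait of the family.

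The members were also set against the rest of the family. For this comparison the median log2 level of the 76 members in each library was taken off every gene before the fit, so a gene that moves with the family is near 0. In *smg-1*, 6 members lay above the family (*rpl-12*, *rpl-26*, *rpl-30*, *rpl-7A*, *rps-17* and *rps-22*; departures 0.63 to 1.22) and 0 below, where 13.6% of all genes tested lay above and 2.26% below. In *smg-2*, 5 lay above (*rpl-1*, *rpl-26*, *rpl-30*, *rpl-7A* and *rps-22*; 0.55 to 1.38) and 0 below, where 6.47% of all genes lay above and 0.721% below. The share of members above the family, 7.89% and 6.58%, was thus below or near that of all genes. *rpl-3* was not called in either mutant (departures 0.48 and 0.55) nor *rpl-12* in *smg-2* (0.67). With the family factor taken as the median deviation of the members from their own means, an alternative added after seeing the data, 7 members lay above in each mutant, where 19.6% of all genes did in *smg-1* and 9.61% in *smg-2*. *rpl-3* then departed by 0.59 in *smg-1* (adjusted p = 0.0095, limma) and 0.74 in *smg-2* (adjusted p = 0.0034), and *rpl-12* by 0.86 in *smg-2*.

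Most of the family lay a little lower in both *smg* mutants than in N2, within a spread that overlaps it in part. The values here are over all 76 members, risers included. In *smg-1*, 65 of 76 had a log2 fold change below 0, the median was -0.23 (all genes tested -0.02), and 47 had both libraries below both N2 libraries, where 32.6% of all genes tested did. In *smg-2*, 59 were below 0, the median was -0.12 (all genes -0.02), and 38 had both libraries below N2, where 26.1% of all genes did. Relative to all genes tested these medians were -0.21 and -0.10, but 0.02 and 0.06 after quantile normalization, so the direction of the family in the *smg* mutants depends on how the libraries are scaled. The replicates of N2 differed from each other by -0.09 on the same measure.

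The 9 members that fell in *smg-1* were *rpl-2*, *rpl-4*, *rpl-7*, *rpl-15*, *rpl-17*, *rpl-25.2*, *rps-3*, *rps-4* and *rps-26*, with log2 fold changes of -0.59 to -0.35. *rpl-25.2*, a protein at the exit of the peptide tunnel, had normalized counts of 10996 and 12680 in N2, and 7841 and 7858 in *smg-1*. *rpl-15*, of the large subunit, had 16522 and 16316 in N2, and 11483 and 11762 in *smg-1*. Neither overlapped N2. The members called in either direction in *smg-1* were 16 in all, and the calls depended on single libraries. With 1 library left out, the calls of the falls could all be lost, while some rises stayed called in every such fit. In *smg-2* the 7 called members were all rises, and some falls were called there in a fit with 1 library left out.

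In *clk-2* at 20 °C the family fell as a whole and none of its members rose. At an adjusted p under 0.05, 46 of the 76 fell and 0 rose, where 15.8% of all genes tested fell and 12.2% rose. The log2 fold change was below 0 in 75 of 76, with a median of -0.39 (0.763-fold) against 0.02 for all genes tested. For 63 members both *clk-2* libraries lay below both N2 libraries, where 28.9% of all genes did, and for 0 members both lay above, where 29.9% did. Without any 1 library the count of called members was lower: 14 without *clk-2* replicate 1, 28 without N2 replicate 2, 28 without either *smg-1* library, 27 without either *smg-2* library, 31 without N2 replicate 1 and 35 without *clk-2* replicate 2. It was 11 in a fit of *clk-2* with N2 alone and 12 after quantile normalization. By the rule of an at least 2-fold change, 2 members fell (*rpl-42* and *rps-21*), where 10.3% of all genes did. Many calls were near the threshold, 19 of the 46 with an adjusted p above 0.03. The median was steadier, at -0.47 to -0.35 relative to all genes over the 4 pairs of a *clk-2* and an N2 library, and -0.23 after quantile normalization.

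The share of reads showed the same difference without a test. The family took 7.84% and 7.85% of the reads in *clk-2*, below all 6 other libraries at 20 °C, which ranged from 8.95% in *smg-1* to 9.94% in N2. Both *smg* mutants (8.95% and 9.13% in *smg-1*, 9.54% and 9.42% in *smg-2*) lay near or within the range of N2.

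**Figure D3:**
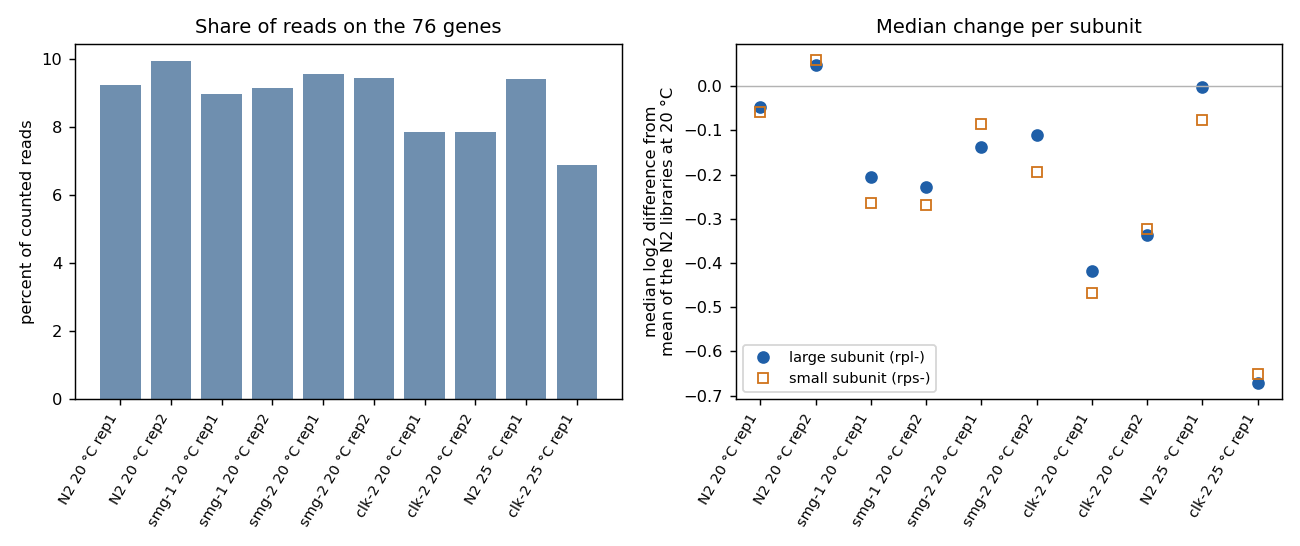
Left, percent of counted reads on the 76 ribosomal protein genes in each of the 10 libraries. Right, median log2 difference of the *rpl-* genes (filled circles) and *rps-* genes (open squares) in each library from the mean of both N2 libraries at 20 °C; both subunits are lowest in *clk-2* and lie close to each other in every library, while the *smg-1* and *smg-2* medians depend on the scaling (relative to all genes they turn positive under quantile normalization).

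The genes that fell most in *clk-2* were *rpl-42*, *rps-21*, *rps-16*, *rps-29* and *rps-14*. *rpl-42* had normalized counts of 46.3 and 72.6 in N2, 47.9 and 72.8 in *smg-1*, 55.0 and 61.6 in *smg-2*, and 12.9 and 18.6 in *clk-2*. The *clk-2* libraries were far below all others, by a log2 fold change of -1.83 (SE 0.32, adjusted p = 0.00254, limma), but these values rest on 5 and 29 reads. It was also the 1 member that departed from the family in *clk-2*, by -1.41 (limma's adjusted p = 0.0082), where 8.96% of all genes tested lay below the family and 42.8% above. With the family factor from deviations 1 member lay below (*rpl-42*) and 1 above (*rpl-39*, 0.79), where 9.3% of all genes lay below and 45.4% above, and without *clk-2* replicate 2 the departing members, by the median level, were 12.

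*rps-21*, a small subunit protein, varied most between libraries. It had normalized counts of 2235 and 2424 in N2, 985 and 1524 in *smg-1*, 1778 and 2399 in *smg-2*, and 696 and 1557 in *clk-2*, and 885 in N2 at 25 °C. *clk-2* was below N2, with a log2 fold change of -1.16 (SE 0.33, adjusted p = 0.0264, limma), but its range overlapped that of *smg-1*, and without *clk-2* replicate 1 the change was -0.58 (adjusted p = 0.15).

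For *rps-16*, *rps-29* and *rps-14*, all of the small subunit, *clk-2* replicate 1 was also much lower than replicate 2. The counts of *rps-16* in *clk-2* were 2035 and 3760 against 5063 and 4051 in N2, those of *rps-29* 1843 and 3195 against 3863 and 3943, and those of *rps-14* 7406 and 11526 against 17385 and 12575. Their log2 fold changes were -0.71, -0.69 and -0.68, and -0.27, -0.29 and -0.36 without *clk-2* replicate 1, each then past the threshold no longer.

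Other falls were closer between replicates. *rpl-25.2* had normalized counts of 6950 and 7899 in *clk-2* against 10996 and 12680 in N2, a log2 fold change of -0.67 (SE 0.11, adjusted p = 0.00181, limma). *rpl-1* had 6489 and 7400 against 9548 and 10028, a change of -0.50 (SE 0.10, adjusted p = 0.00577). Both calls held in the 18 alternatives run for single genes, and neither change reaches 2-fold. Of the 6 genes that rose in both *smg* mutants, *rpl-3* (-0.41), *rpl-26* (-0.34) and *rps-22* (-0.39) fell in *clk-2*, and *rpl-12* (-0.31), *rpl-7A* (-0.29) and *rpl-30* (-0.08) were not called. Without *clk-2* replicate 1 the calls of all 3 that fell were lost, with values of -0.37, -0.38 and -0.36.

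At the other end, *rpl-39*, a protein lining the peptide tunnel, was the 1 member with a positive change in *clk-2*, 0.36 (SE 0.29, adjusted p = 0.402, limma). Its normalized counts were 1217 and 2069 in N2, and 2671 and 1552 in *clk-2*, so the groups overlap. *rps-28* (-0.0039), *rpl-31* (-0.0055), *rps-8* (-0.02) and *rpl-24.1* (-0.08) followed, none of them called. For *rps-8* the libraries of each group lay far apart, at 22442 and 33764 in N2 and 36280 and 20425 in *clk-2*.

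Large and small subunit genes moved by nearly the same amount. The median log2 fold change of the *rpl-* and of the *rps-* genes was -0.23 and -0.25 in *smg-1*, -0.12 and -0.15 in *smg-2*, and -0.36 and -0.39 in *clk-2*. Over the 4 pairs of a mutant and an N2 library, the large minus the small median ran from -0.0036 to 0.094 in *smg-1*, from 0.025 to 0.12 in *smg-2* and from -0.076 to 0.0048 in *clk-2*. In *clk-2*, 26 of 45 *rpl-* and 20 of 31 *rps-* genes fell. The risers were mostly of the large subunit, which also holds most members: 5 *rpl-* and 2 *rps-* genes rose in *smg-1*, and 6 and 1 in *smg-2*. These were 11.1% of *rpl-* and 6.45% of *rps-* genes in *smg-1*, where 12.3% of all genes tested rose. In *smg-2* they were 13.3% and 3.23%, where 8.12% of all genes rose. The difference between the subunits was not tested.

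Members with numbered names differed among themselves. The proteins RPL-11.1 and RPL-11.2 are close copies of 1 large subunit protein, so reads that match both were dropped and their levels are those of the unique parts. *rpl-11.1* had normalized counts of 10869 and 9316 in N2 and 6640 and 7971 in *clk-2*, a fall of 0.47 on the log2 scale (adjusted p = 0.0361, limma). *rpl-11.2*, on the X chromosome, had 7161 and 8869 in N2 and 6267 and 6338 in *clk-2* (log2 fold change -0.34, adjusted p = 0.0581). Without *clk-2* replicate 1 the change of *rpl-11.1* was -0.34 and not called.

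*rpl-25.1* and *rpl-25.2* differ in counted level, with reads that match both dropped. In N2, *rpl-25.1* had 4904 and *rpl-25.2* 23916 normalized counts per kilobase. Both fell in *clk-2* (-0.50 and -0.67), and *rpl-25.2* fell in *smg-1*, where the change of *rpl-25.1* was -0.22 (adjusted p = 0.321, limma). *rpl-24.1* encodes the ribosomal protein and *rpl-24.2* (*rsl-24D1* in RefSeq) a related protein of ribosome assembly, so the latter is no ribosomal protein in the strict sense. *rpl-24.1* changed by -0.08 and *rpl-24.2* by -0.38 in *clk-2*, neither called. *rpl-36* and *rpl-36.A* encode different proteins of the large subunit. The first fell in *clk-2* (-0.41, limma's adjusted p = 0.0275), with -0.29 and no call without *clk-2* replicate 1, and the second was at -0.26 (adjusted p = 0.109).

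At 25 °C, with 1 library each, *clk-2* was below N2 for all 76 members, where 55.5% of all genes tested were lower. The median log2 ratio was -0.65 (all genes -0.07), and the share of reads was 6.87% in *clk-2* and 9.40% in N2. The lowest ratio was -1.15, for *rpl-25.2* (6131 against 13620.0 normalized counts), the 1 member at least 2-fold lower, where 6.19% of all genes tested were, and the highest -0.11, for *rpl-29* (3585 against 3878). These differences have no replicate check. N2 itself had a median of -0.02 at 25 °C relative to 20 °C, with 41 members lower and 35 higher, from -1.39 for *rps-21* to 0.68 for *rpl-39*. *clk-2* had a median of -0.27 at 25 °C relative to 20 °C, with 69 of 76 lower.

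**Figure D4:**
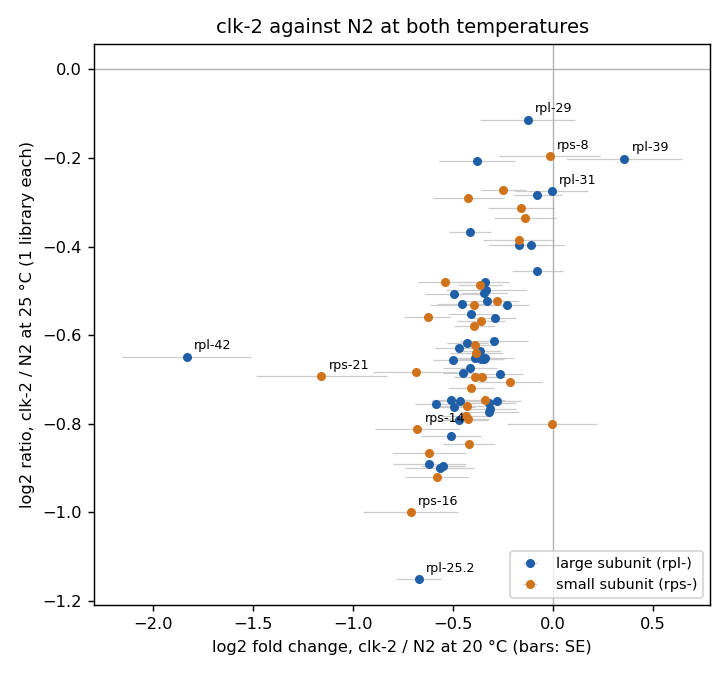
Each point is 1 ribosomal protein gene: log2 fold change of *clk-2* against N2 at 20 °C (horizontal, 2 libraries a group, bars are standard errors) and log2 ratio at 25 °C (vertical, 1 library each). All 76 points lie below 0 at 25 °C and 75 lie left of 0 at 20 °C; *rpl-42* and *rps-21* stand apart at 20 °C and not at 25 °C.

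Across the 76 members, the change in *clk-2* at 20 °C and at 25 °C had a Pearson r of 0.49, and 0.66 over 74 members without *rpl-42* and *rps-21*. The 25 °C values come from other libraries than those at 20 °C, but genes are not independent replicates. *rpl-25.2* was among the lowest at both temperatures, and *rpl-39*, *rps-8* and *rpl-31* were among the highest (-0.20, -0.20 and -0.27 at 25 °C). *rps-28* was near 0 at 20 °C and at -0.80 at 25 °C.

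Set against the mean of both *smg* mutants instead of N2, *clk-2* was lower for 30 members and higher for 0, where 25.6% of all genes tested were lower and 20.7% higher. The 3 lowest were *rpl-42* (-1.85), *rps-22* (-1.60) and *rpl-7A* (-1.27). The 8 genes that rose in an *smg* mutant follow *rpl-42* at the head of this list, in a comparison that uses the same *smg* libraries, and the median over all members was -0.23. The count was 11 to 37 when 1 library was left out.

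Genes that work with the ribosome were compared from lists named by function, chosen with earlier results of these data known. Of 6 cytosolic ribosomal proteins with other names, *ubl-1*, which encodes a small subunit protein fused to a ubiquitin-like domain, rose in *smg-1* (log2 fold change 0.62, SE 0.15, adjusted p = 0.016, limma) and in *smg-2* (0.88, SE 0.15, adjusted p = 0.00366). It had normalized counts of 11497 and 14624 in N2, 20280 and 19701 in *smg-1*, and 24534 and 23120 in *smg-2*, without overlap. The stalk gene *rla-1* fell in *smg-1* (-0.56, SE 0.12, limma's adjusted p = 0.00919), and the other 4 genes of the list were not called in an *smg* mutant. In *clk-2* the stalk genes *rla-0* (-0.49) and *rla-1* (-0.51) and the scaffold gene *rack-1* (-0.61) fell, and W01D2.1 fell by 0.75 on the log2 scale.

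Of 21 genes for ribosome assembly and rRNA synthesis, 11 fell (52.4%) and 0 rose in *clk-2*, with a median of -0.38, where 15.8% of all genes tested fell. They included *nol-56* (-0.66) and *nol-58* (-0.55), core proteins of the box C/D particles that guide rRNA methylation, *fib-1* (-0.40), the methyltransferase fibrillarin, and *rpoa-1* (-0.44) and *rpoa-2* (-0.40), of RNA polymerase I. Of 40 translation factors, 9 fell (22.5%) and 0 rose in *clk-2*, with a median of -0.23, among them the elongation factors *eef-1A.1* (-0.48) and *eef-2* (-0.42). Of 69 mitochondrial ribosomal proteins, 3 fell (4.35%) and 0 rose, with a median of -0.12, a share below that of all genes. Genes shorter than 1000 nucleotides, the size of most members, had a median of -0.02 in *clk-2*. Of these short genes, 19.5% fell and 11.5% rose, where 15.8% and 12.2% of all genes did. In *smg-1*, 7 of the assembly genes (33.3%) and 7 of the translation factors (17.5%) fell, where 9.25% of all genes did, and in *smg-2*, 1 and 0, where 0.981% did. The 1 translation factor that rose in each *smg* mutant was *ife-5*, a cap-binding protein (1.97 and 2.09).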

How the data were processed

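As deposited, each value is a signal: read counts per gene that the authors divided by 1 size factor per library. Reads had been mapped to WBcel235 with STAR 2.5.4a, reads matching more than 1 place dropped, and the rest counted on exons of protein-coding genes. No strand setting is stated, so overlapping and antisense genes are uncertain, and labels and methods name different library kits. Whole reads were recovered for 100% of values (tolerance 0.001 read).

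Changes were tested with limma 3.58.1 (R 4.3.3, trended variance) on log2(value + 1), which understates changes of low genes, in 1 fit of the 8 libraries at 20 °C. It held 13869 genes whose mean was 10 or more. Calls are at an adjusted p under 0.05 (Benjamini-Hochberg, all genes). Groups have 2 libraries, for which exact tests of single values cannot go below 0.333 (two-sided). Libraries are not stated to come from separate cultures, so the spread may be technical. Libraries at 25 °C have no test. edgeR 4.0.16 and DESeq2 1.42.0, run on the recovered reads, were alternatives.

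Members and lists were chosen with earlier results of these data known. Genes named are those with described unproductive forms, those departing from the family in both *smg* mutants, the 5 lowest and 5 highest in *clk-2*, the 3 highest and 3 lowest per kilobase in N2, and numbered copies. Other names (*rps-17*, *rpl-13*, *rpl-22*, *rpl-15*, *rpl-29* and the list genes) were chosen after their values were seen. RefSeq names were matched by coordinates. 0 columns were left without a sample.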

Additional observations from a re-analysis of the deposited data

Results flagged for a closer look

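These values are direct differences between mutants, each tested in the limma fit at 20 °C. *smg-1* and *smg-2* differed in 2 members: *rpl-1* was lower in *smg-1* (-0.55 on the log2 scale) and *rps-17* higher (0.82). In each case both libraries of 1 mutant lay above all libraries of the other.

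*clk-2* differed from the mean of both *smg* mutants in 30 members, all lower in *clk-2*. Those among the named genes that had risen in an *smg* mutant were *rps-22* (-1.60), *rpl-7A* (-1.27), *rpl-30* (-1.21), *rpl-26* (-0.95), *rpl-12* (-0.92), *rpl-3* (-0.88), *rpl-1* (-0.82) and *rps-17* (-0.70). The others were *rpl-42* (-1.85), *rps-16* (-0.66), *rps-14* (-0.61), *rpl-25.1* (-0.42), *rpl-11.1* (-0.37) and *rpl-25.2* (-0.29). For *rps-16* and *rps-14* the replicates of *clk-2* lay far apart.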

How the results depend on the processing

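Of 33 called changes of named genes, none reversed under any of the 18 alternatives; over all alternatives, 460 values kept their side of the threshold and 133 lost the call. Called members at 20 °C (16 in *smg-1*, 7 in *smg-2*, 46 in *clk-2*) were 1, 3 and 2 by the 2-fold rule. In *smg-1* they were 9 after quantile normalization and 10 with reads thinned to the shallowest library. In *clk-2* they were 12 after quantile normalization, 23 with thinned reads and 11 with N2 alone. Medians relative to all genes became 0.023 (*smg-1*), 0.061 (*smg-2*) and -0.23 (*clk-2*) after quantile normalization, and -0.13 and -0.050 in the *smg* mutants with a mean of at least 100; against N2 at 20 °C, that of *clk-2* at 25 °C was -0.66. Members departing from the family in *clk-2* were 2 with a pseudocount of 10, edgeR, thinned reads, the replicate block or the factor from deviations, and 0 with a mean of at least 100, which leaves out *rpl-42*. DESeq2 called 4 members between *smg-1* and *smg-2*. The cause of these changes was not tested.

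With 1 library left out, called members ranged from 5 to 21 in *smg-1*, 5 to 11 in *smg-2* and 14 to 35 in *clk-2*. Those departing ranged from 4 to 6, 3 to 6 and 1 to 12. Those differing ranged from 0 to 4 between *smg-1* and *smg-2*, and from 11 to 37 between *clk-2* and the *smg* mean. Medians relative to all genes ranged from -0.26 to -0.19, -0.16 to -0.088 and -0.46 to -0.34. The large minus the small median ranged from 0.0096 to 0.067, -0.052 to 0.099 and -0.030 to 0.049. A lone library was assumed to vary like the others.

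Over all genes, equal replicate numbers did not pair the libraries: correlations of their deviations were -0.27 to 0.096 between groups. Over the members they were -0.48 (N2 with *clk-2*) to 0.66 (*smg-1* with *smg-2*), with some below 0. Among the members, same-numbered *smg-1* and *smg-2* libraries thus varied together. With the replicate block, called members were 15, 7 and 38, departing members in *smg-2* 3, and members differing between *smg-1* and *smg-2* 1. With the *smg-1* numbers crossed, 8 were called in *smg-1*, and with the *clk-2* numbers crossed, 50 in *clk-2*.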
